A study of Mus musculus with 8 samples.

Results

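*Ror1* and 7 further genes of noncanonical WNT signalling were followed through the histone mark H3K27Ac in the mouse heart after loss of *Arid1a*. The 8 genes are the receptors *Ror1* and *Ror2*, the ligands *Wnt5a*, *Wnt5b* and *Wnt11*, the Frizzled receptors *Fzd2* and *Fzd7*, and the polarity gene *Vangl2*. They were chosen from earlier results of these measurements, and a peak was given to a gene when the curated RefSeq transcription start nearest to its centre was that gene's. By this rule 53 of the 45980 annotated peaks belonged to the 8 genes, out of 45987 peaks in the table. *Ror1* had 16 of them, *Wnt5b* 14, *Wnt11* 9, *Ror2* 6, *Wnt5a* 3, *Fzd7* 2, *Vangl2* 2 and *Fzd2* 1. Because the same contrast chose the genes, every difference between the groups is given as a description.

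H3K27Ac was measured by ChIP-Seq in ventricles at postnatal day 7. The control group was 2 hearts with floxed alleles of *Arid1a* (f/f) and no Cre, and the *Arid1a cKO* group was 2 hearts with the same floxed alleles and the αMHC-Cre transgene. Each heart gave 1 H3K27Ac library and 1 input library, 8 libraries in all. αMHC-Cre recombines in cardiomyocytes, so *Arid1a* stays in the fibroblasts, vessel cells and blood cells that ventricle tissue also holds. The values used are the authors' means, 1 per group and peak, on a log2 scale of normalized reads. The median peak had 44.3 normalized reads over both groups, and no error between hearts was computed from 1 mean per group. The order of genes or peaks by level is therefore given without saying which neighbours in it differ beyond the spread of hearts.

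Noncanonical WNT signalling runs without β-catenin. WNT5A, WNT5B and WNT11 bind Frizzled receptors together with the ROR1 or ROR2 co-receptors, which are receptor tyrosine kinase-like proteins, and the signal reaches small GTPases, JNK and calcium-dependent enzymes. VANGL2 is a membrane protein of the planar cell polarity branch, through which cells of a sheet take a common orientation. In the embryo this branch shapes the outflow tract and the early heart muscle. H3K27Ac marks active promoters and enhancers, and ARID1A belongs to the SWI/SNF complex, which moves nucleosomes.

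The sequences shown are the *Ror1* promoter and windows of lower peaks inside *Ror1*, with a promoter of *Wnt5b* beside them. They were read from RefSeq and the GRCm38.p6 assembly, which is mm10. Capitals mark matches, on either strand, to the MEF2 consensus, the ESRR word TCAAGGTCA and the E-box CAGGTG, which ZEB and SNAI factors bind. They also mark the TEAD word CATTCC, the AP-1 word TGANTCA, the GATA word AGATAA and the TCF/LEF word CTTTGAT. The *Ror1* promoter is chr4:100095541-100095840 on the plus strand. The *Wnt5b* promoter is that of an internal start, chr6:119467162-119467461 on the minus strand, under a peak that was lower in *Arid1a cKO* hearts. Both run over 300 bases, from before the transcription start to shortly after it.
Ror1 promoter: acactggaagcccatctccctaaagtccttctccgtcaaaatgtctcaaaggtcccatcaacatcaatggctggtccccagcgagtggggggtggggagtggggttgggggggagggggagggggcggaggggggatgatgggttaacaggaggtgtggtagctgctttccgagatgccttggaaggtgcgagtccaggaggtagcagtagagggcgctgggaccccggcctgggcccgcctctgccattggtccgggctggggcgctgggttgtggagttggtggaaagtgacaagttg
Wnt5b promoter: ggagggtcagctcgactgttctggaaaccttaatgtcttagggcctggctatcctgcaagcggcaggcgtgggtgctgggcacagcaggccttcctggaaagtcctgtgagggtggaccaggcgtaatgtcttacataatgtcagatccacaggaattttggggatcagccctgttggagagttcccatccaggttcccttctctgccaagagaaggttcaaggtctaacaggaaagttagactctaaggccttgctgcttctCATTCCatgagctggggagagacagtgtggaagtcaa
The intronic windows of 200 bases come from peaks inside *Ror1* that were lower by 1 or more on the log2 scale, and each is named by the distance of its peak from the *Ror1* start. They are the 3 largest differences on either side of the point midway to the next start, and each peak with a MEF2 or ESRR match. A peak with such a match is shown around a match, and the others are shown at the centre of the peak. All are on the plus strand, at chr4:100222915-100223114, chr4:100228136-100228335, chr4:100232430-100232629, chr4:100235395-100235594, chr4:100284492-100284691, chr4:100297638-100297837, chr4:100301846-100302045 and chr4:100377955-100378154 in the order printed.
Ror1 intron 127 kb: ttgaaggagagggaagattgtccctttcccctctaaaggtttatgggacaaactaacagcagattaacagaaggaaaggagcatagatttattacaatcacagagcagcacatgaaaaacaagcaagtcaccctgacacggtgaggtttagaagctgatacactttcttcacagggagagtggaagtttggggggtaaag
Ror1 intron 132 kb: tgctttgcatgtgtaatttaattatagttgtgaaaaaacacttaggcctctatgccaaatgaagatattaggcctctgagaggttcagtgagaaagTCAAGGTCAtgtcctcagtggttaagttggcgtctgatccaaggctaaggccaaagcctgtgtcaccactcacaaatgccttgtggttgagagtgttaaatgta
Ror1 intron 137 kb: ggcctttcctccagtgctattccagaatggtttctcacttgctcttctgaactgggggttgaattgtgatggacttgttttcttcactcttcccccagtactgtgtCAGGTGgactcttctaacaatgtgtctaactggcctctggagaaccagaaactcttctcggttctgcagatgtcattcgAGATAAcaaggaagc
Ror1 intron 139 kb: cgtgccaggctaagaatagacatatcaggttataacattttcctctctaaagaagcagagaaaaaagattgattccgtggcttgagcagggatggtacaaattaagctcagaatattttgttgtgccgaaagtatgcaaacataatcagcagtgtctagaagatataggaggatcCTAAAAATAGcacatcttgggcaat
Ror1 intron 189 kb: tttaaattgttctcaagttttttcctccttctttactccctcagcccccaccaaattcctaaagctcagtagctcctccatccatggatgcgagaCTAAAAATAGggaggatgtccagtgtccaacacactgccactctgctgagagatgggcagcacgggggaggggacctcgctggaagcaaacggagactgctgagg
Ror1 intron 202 kb: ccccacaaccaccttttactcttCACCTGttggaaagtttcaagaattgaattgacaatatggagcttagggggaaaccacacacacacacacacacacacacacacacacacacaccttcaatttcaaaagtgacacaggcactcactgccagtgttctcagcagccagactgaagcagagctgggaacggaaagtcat
Ror1 intron 206 kb: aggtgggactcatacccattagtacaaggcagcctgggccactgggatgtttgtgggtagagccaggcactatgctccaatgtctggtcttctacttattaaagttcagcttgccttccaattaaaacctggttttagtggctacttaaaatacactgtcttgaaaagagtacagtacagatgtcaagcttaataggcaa
Ror1 intron 283 kb: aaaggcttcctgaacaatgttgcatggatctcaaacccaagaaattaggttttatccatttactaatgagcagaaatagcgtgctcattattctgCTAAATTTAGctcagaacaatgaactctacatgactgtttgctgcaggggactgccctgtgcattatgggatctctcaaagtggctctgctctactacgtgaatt
The windows at 139, 189 and 283 kb were placed on a MEF2 match and the window at 132 kb on an ESRR match, so their holding these words is by choice. In the central 200 bases of all peaks, the MEF2 consensus lay in 1.10% and the ESRR word in 0.753%. Over their whole length, 7.56% (MEF2) and 7.34% (ESRR) of all peaks held these words. The window at 137 kb held an E-box and a GATA match, and the window at 202 kb an E-box, words found in 12.1% (E-box) and 9.10% (GATA) of all peaks at that length. None of the 7 motifs lay in the windows at 127 and 206 kb or in the *Ror1* promoter. The internal *Wnt5b* promoter held 1 CATTCC, a word present in 14.7% of 32851 promoters of 300 bases. A match is a description of the letters.

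The targeted gene was looked at next. *Arid1a* had 2 peaks. The peak at its start, chr4:133749994-133758098, had an authors' mean of 1610 normalized reads in controls against 1660 in *Arid1a cKO* hearts (log2 difference 0.05). The other lay in an intron at 7.73 kb, with 17.4 and 17.1 reads (−0.02). H3K27Ac at the *Arid1a* start does not check the deletion, since a floxed gene can keep its promoter and other cells keep the gene.

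A peak was counted as lower or higher when the *Arid1a cKO* mean minus the control mean was 1 or more in size on the log2 scale. Of the 16 *Ror1* peaks, 9 were lower and 0 were higher, while 10.6% of all annotated peaks were lower and 4.57% higher. The count depends on how peaks are given to genes, with 2 lower of 8 within 100 kb, 16 of 24 by gene body, and 0 of 6 when predicted RefSeq genes inside *Ror1* also take peaks. The 7 other genes had 7 lower peaks and 1 higher peak among 37. Their lower peaks were 2 of 21 by gene body, and 2 of 20 with predicted RefSeq genes included. Over the whole table, intronic peaks were lower in 12.7% of cases and promoter peaks in 1.56%. Peaks whose mean over both groups was under 10 normalized reads were lower in 17.6% and higher in 16.8% of cases, so single weak peaks carry little. All 53 member peaks were in the table with a value in both groups, and no filter on low values was used. The median difference was −1.29 over the *Ror1* peaks, 0.12 over the peaks of the 7 other genes and 0.01 over all peaks. In ventricle tissue, fewer cells that carry the mark and less mark per cell cannot be told apart.

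**Figure D1:**
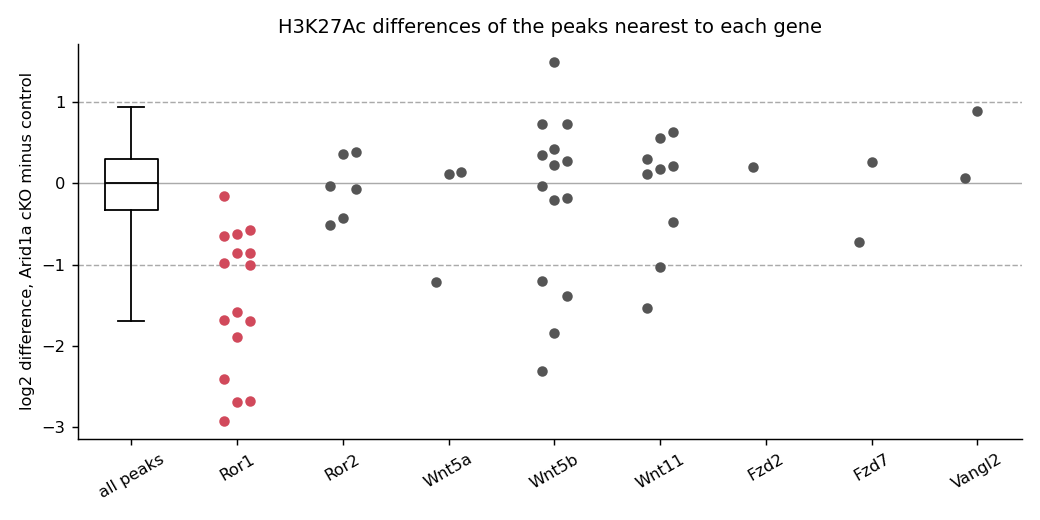
Log2 difference of H3K27Ac (*Arid1a cKO* minus control, y axis) for each peak nearest to each gene (points), beside a box for all annotated peaks with its median, quartiles and whiskers at the 5th and 95th percentiles. Dashed lines stand at −1 and 1. All 16 *Ror1* points lie below 0, while *Wnt5b* has 7 points below and 7 above.

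*Ror1* encodes a co-receptor of WNT5A and spans 349 kb on the plus strand of chromosome 4, with a single curated start. All 16 of its peaks had a lower mean in *Arid1a cKO* than in control hearts, with differences from −2.93 to −0.16. Of all 45980 annotated peaks, 22225 had a lower mean. Summed over the 16 peaks, which cover 36.0 kb, there were 1566 reads in controls against 687 in *Arid1a cKO* hearts, a log2 difference of −1.19. With group means under 3 normalized reads set to 3, the difference was again −1.19. Per kb of peak, *Ror1* stood at 43.5 reads in controls, behind *Fzd2* (52.8) and ahead of *Fzd7* (41.5), *Vangl2* (39.0), *Wnt5b* (32.3), *Ror2* (23.8), *Wnt5a* (20.4) and *Wnt11* (18.8). In *Arid1a cKO* hearts it stood at 19.1 reads per kb, the lowest of the 8 genes, next to *Wnt5a* at 20.3 and *Wnt11* at 21.3.

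At the start of *Ror1* and before it, differences stayed under 1 in size. The peak over the start, chr4:100095431-100098960, had 388 reads in controls against 214 in *Arid1a cKO* hearts, a log2 difference of −0.86. It was the strongest *Ror1* peak in both groups, at percentile 92.7 of control levels over all peaks. The next peaks, at 6.02 and 10.9 kb in the first intron, differed by −0.65 and −0.16. Upstream, an intergenic peak of 4889 bp at 64.5 kb before the start had 347 reads in controls against 176 in *Arid1a cKO* hearts, a difference of −0.98. A weak upstream peak at 39.2 kb had 8.06 and 5.24 reads. Over these 5 peaks the summed log2 difference was −0.85, and none of them was lower by 1 or more.

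Larger differences lay deep in the first intron. The 11 *Ror1* peaks more than 60 kb after the start, a split drawn after the values were seen, had a summed log2 difference of −1.70, from 744 to 230 normalized reads, and 9 of them were lower by 1 or more. The strongest of these, at 132 kb (chr4:100225860-100229304), had 191 reads in controls against 29.4 in *Arid1a cKO* hearts and was 6.50-fold lower. It is the peak that holds the ESRR match, and its difference of −2.70 stood at percentile 2.01 of all peaks. At 127 kb (chr4:100221563-100224467), 153 reads in controls stood against 23.8, 6.45-fold lower. The peak at 123 kb, only a short way before it, had 133 and 73.0 reads and a difference of −0.86. Neighbouring peaks of the intron thus differed unequally. The difference of largest size, −2.93, was at 137 kb (chr4:100232044-100233017), where the means were 21.7 reads in controls against 2.85 in *Arid1a cKO* hearts. Both *Ror1* peaks with a MEF2 match were lower, from 24.8 to 6.63 reads at 139 kb (3.73-fold) and from 27.7 to 5.21 reads at 189 kb (5.31-fold). The peaks at 86.2, 135 and 145 kb differed by −1.59, −1.68 and −1.70. At 67.4 kb the means were 38.1 and 19.0 reads, just at the limit for a lower peak, and the peak at 92.7 kb differed by −0.58. Across the 16 peaks, the Spearman correlation of the difference with the signed distance from the start was −0.72, and with the control level 0.16. The same reading of all 24 peaks centred in the gene was added after the values were seen. Across them, the correlation with distance was −0.17 and with the control level −0.09. Taken apart, the 14 of these nearest to the *Ror1* start gave −0.73 with distance, and the 10 nearest to the *Ube2u* start gave 0.88. Differences were thus lowest in the middle of the gene and smaller in size toward its ends. Peaks of 1 gene share libraries and are not replicates.

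**Figure D2:**
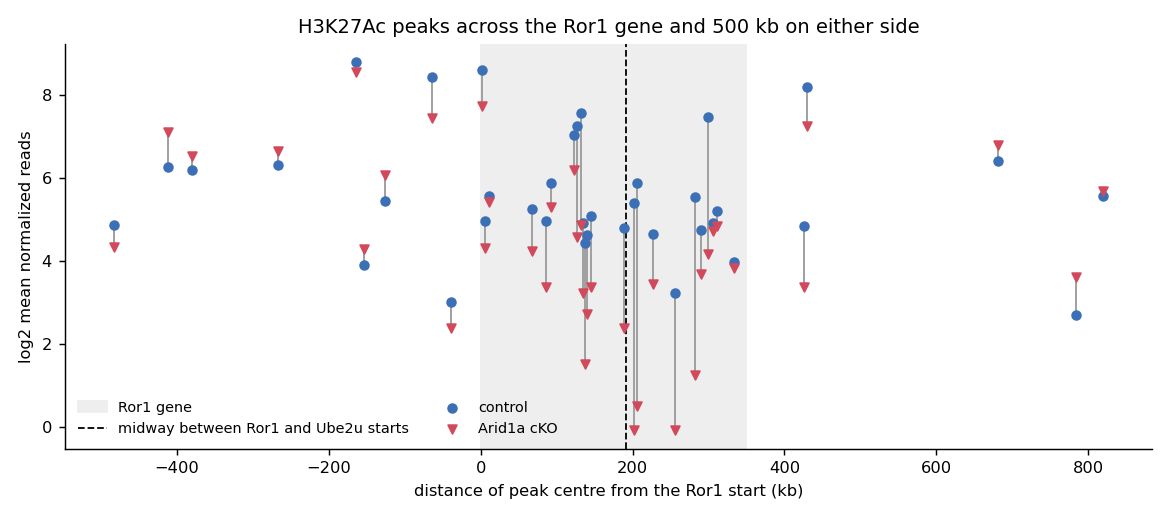
Authors' mean log2 normalized reads (y axis) of each H3K27Ac peak in control (circles) and *Arid1a cKO* (triangles) hearts, by distance of the peak centre from the *Ror1* start in kb (x axis). Grey shading is the *Ror1* gene, and the dashed line is midway between the *Ror1* and *Ube2u* starts. All triangles inside the gene lie below their circles, with the longest lines between 127 and 300 kb.

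The rule of the nearest start ends the *Ror1* set inside the gene. The next gene on that side, *Ube2u*, starts after the end of *Ror1*, and 10 of the 24 peaks centred in the *Ror1* gene lie nearer to its start. The last peak inside the rule, at 189 kb, had 27.7 reads in controls against 5.21 in *Arid1a cKO* hearts. The first peak outside it, at 202 kb (chr4:100296793-100298684), had 42.2 reads in controls and stood at the lowest value of the table, 0.946 reads, in *Arid1a cKO* hearts, which is at least 14.1-fold lower against a floor of 3 reads. On the other side, the first *Ror1* peak had 347 and 176 reads, and the last *Pgm1* peak before it (chr4:99969043-99971566) had 44.0 and 67.6, a difference of 0.62.

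All 10 peaks past the midpoint had lower means in *Arid1a cKO* hearts, and 7 were lower by 1 or more. At 206 kb (chr4:100300652-100303241), still in the first intron, the means were 59.3 reads in controls against 1.42 in *Arid1a cKO* hearts. At 283 kb (chr4:100377527-100379306), in intron 4, they were 46.9 and 2.38 reads, and this peak holds both a MEF2 and an ESRR match. The strongest, at 300 kb (chr4:100394389-100396675) in the same intron, had 177 and 18.0 reads and was 9.85-fold lower. A peak at 256 kb had 9.45 reads in controls and the lowest value of the table in *Arid1a cKO* hearts, at least 3.15-fold lower. The peaks at 306 and 311 kb in intron 4 and at 334 kb in intron 8 differed by −0.18, −0.35 and −0.16. Taken by gene body, which adds these 10 and leaves out the 2 upstream peaks, *Ror1* had 16 lower peaks of 24 and a summed log2 difference of −1.43. Each of the 24 centres lay in an intron.

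**Figure D3:**
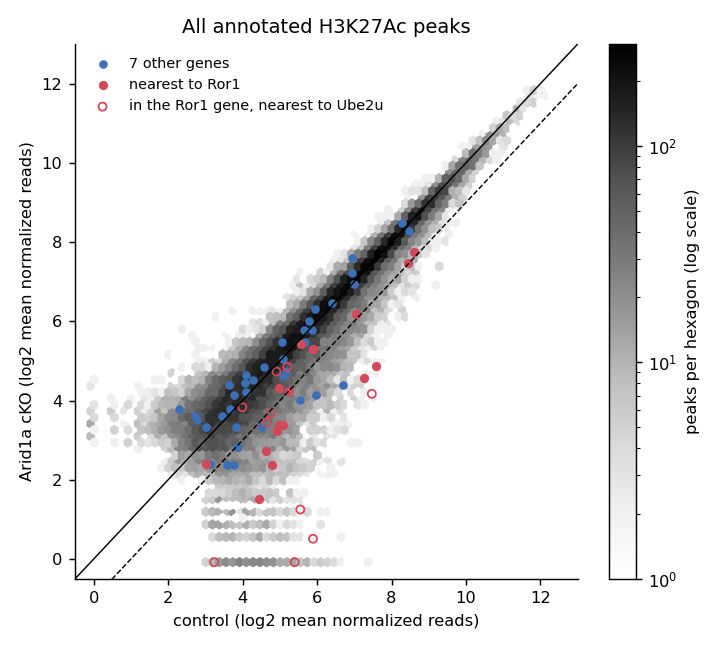
Authors' mean log2 normalized reads in control (x axis) and *Arid1a cKO* (y axis) hearts for all 45980 annotated peaks, as hexagons shaded by the number of peaks on a log scale. The solid line is equality and the dashed line a difference of −1. Filled red points are the 16 peaks nearest to *Ror1*, open red points the 10 others in its gene, and blue points the 37 peaks of the 7 other genes.

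The lower peaks of *Ror1* were neighbours. From 127 to 300 kb after the start, 14 peaks in a row were lower by 1 or more, over 175 kb (chr4:100221563-100396675). Of these, 7 were nearest to *Ror1* and 7 to *Ube2u*. Their summed reads were 870 in controls and 135 in *Arid1a cKO* hearts, a log2 difference of −2.69, or −2.62 with means under 3 reads set to 3. Runs of lower peaks were then counted over the whole table, a measure added after the values were seen. There were 3553 runs, 2729 of them single peaks, and only 2 runs reached 14. The other, at *Rap1gap2*, a gene named here after its values were seen, spans 152 kb. The next peak was also lower after 27.2% of the lower peaks and after 8.65% of the others, so lower peaks lay side by side elsewhere too.

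**Figure D4:**
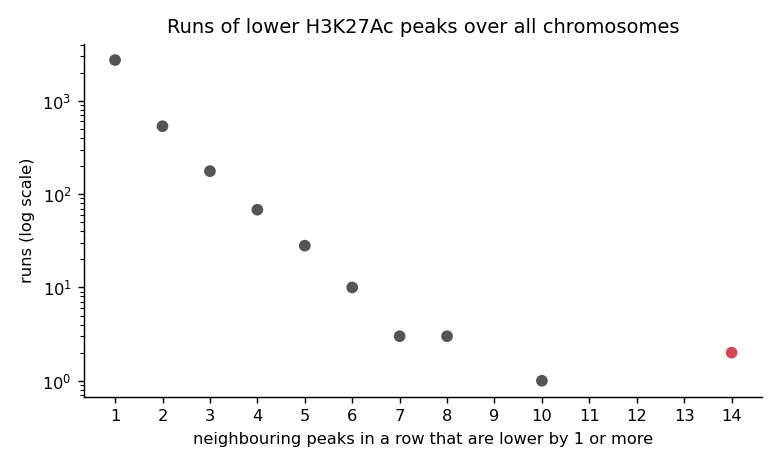
Number of runs (y axis, log scale) by the number of neighbouring H3K27Ac peaks in a row that were lower by 1 or more (x axis), over all chromosomes. Single lower peaks make up 2729 of the 3553 runs, and the 2 runs of 14 peaks (red) are those at *Ror1* and *Rap1gap2*.

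Peaks around the gene were read for comparison. Before *Ror1*, the 7 peaks of other genes within 500 kb had a median difference of 0.34 and none was lower by 1 or more. They belong to *Foxd3* (−0.52 and 0.84), *Alg6* (0.34), *Efcab7* (0.34) and *Pgm1* (−0.22, 0.37 and 0.62). After *Ror1*, *Ube2u*, a ubiquitin-conjugating enzyme gene, had 2 peaks in its own gene. The means were 28.6 reads in controls against 10.4 in *Arid1a cKO* hearts at the weaker peak, and 292 and 153 at the stronger, differences of −1.46 and −0.93. The 3 peaks of *Cachd1*, farther on, differed by 0.39, 0.92 and 0.12.

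*Ror2* encodes the other ROR co-receptor. Its 6 peaks, all in the first intron by their centres, summed to 264 reads in controls against 255 in *Arid1a cKO* hearts, a log2 difference of −0.05. At its start (chr13:53284733-53286421) the means were 57.7 and 54.9 reads. The strongest *Ror2* peak, at 24.6 kb (chr13:53259204-53263847), had 126 and 124 reads. The 4 others differed by −0.51 to 0.39, and none was lower or higher by 1. The difference seen over the peaks of *Ror1* was thus not seen over those of *Ror2*.

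Among the ligands, *Wnt5a*, which encodes a main ligand of both ROR proteins, had 3 peaks. The promoter peak (chr14:28504314-28506474) had 50.2 reads in controls against 55.3 in *Arid1a cKO* hearts, a difference of 0.14. A peak at 88.3 kb before the start, in an intron of *Erc2*, had 12.0 and 5.21 reads and was 2.31-fold lower. The remaining one, at 324 kb, also lies in *Erc2* and differed by 0.12. The summed reads of *Wnt5a* were 79.3 and 79.0.

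*Wnt5b*, a close relative of *Wnt5a*, had 14 peaks, of which 4 were lower and 1 was higher by 1 or more. Its first start (chr6:119543058-119545030) had 51.3 reads in controls against 44.6 in *Arid1a cKO* hearts, a difference of −0.20. At the internal start whose promoter is printed, the peak (chr6:119466575-119468074) had 63.1 and 17.5 reads and was 3.61-fold lower. The largest difference among its peaks, −2.32, was at 28.1 kb before the first start (chr6:119571067-119573834), over an exon of *Erc1*, with 104 reads in controls against 20.8 in *Arid1a cKO* hearts. Of the 3 curated starts of *Wnt5b*, only the first and the internal one printed lay under a peak. The peaks nearest to the remaining start, at 2.96 kb before it and 5.72 kb after it, differed by 0.28 and 0.43. The other lower peaks, at 17.5 kb inside the gene and at 117 kb before it, had 22.9 and 13.6 reads in controls and differed by −1.20 and −1.39. The higher peak, at 84.2 kb in *Erc1*, went from 4.86 to 13.7 reads, a level at which peaks of either direction are frequent. The strongest peak given to *Wnt5b*, 111 kb before its start in an intron of *Erc1*, had 352 and 311 reads. Summed over its peaks *Wnt5b* had 803 and 663 reads, a log2 difference of −0.28. Its peaks beyond the gene may belong to *Erc1*, which the rule cannot settle.

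*Wnt11*, a ligand needed for the early heart, had 9 peaks. The nearest one to a start lay 19.4 kb before it (chr7:98814544-98816827), with 54.9 reads in controls against 64.0 in *Arid1a cKO* hearts. The strongest, at 59.0 kb in an intron of *Uvrag* (chr7:98894444-98901227), had 124 and 193 reads, a difference of 0.64. In the same gene, peaks at 79.3 and 147 kb were lower, from 14.5 to 7.11 reads (−1.03) and from 46.9 to 16.1 reads (−1.54). Summed over the 9 peaks, *Wnt11* had 323 and 366 reads, a log2 difference of 0.18.

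The Frizzled receptors bind the WNT ligands directly. *Fzd2*, a gene with a single coding exon, had 1 peak of 5851 bp over its whole gene (chr11:102602219-102608069), with 309 reads in controls against 355 in *Arid1a cKO* hearts, a difference of 0.20. At the promoter of *Fzd7* (chr1:59480729-59483391) the means were 124 and 149 reads, a difference of 0.27. Its second peak, 5.62 kb after the start, had 8.63 and 5.24 reads. *Vangl2* had a promoter peak (chr1:172026477-172028040) of 83.9 and 88.0 reads and a weak intronic peak of 6.63 and 12.3 reads, with differences of 0.07 and 0.89. None of these 5 peaks was lower or higher by 1 or more, and the strong ones lay close to equality.

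Motif matches were counted in the central 500 bases of the 9 lower *Ror1* peaks and of all peaks. The MEF2 consensus lay in 1 of the 9 (11.1%, exact 95% interval 0.281% to 48.2%) and in 2.58% of all peaks. E-boxes lay in 44.4% (13.7% to 78.8%) against 28.0% of all peaks, but the direction turned in the central 1000 bases (44.4% against 49.2%). GATA words lay in 33.3% (7.49% to 70.1%) against 21.5%, and TEAD words in 11.1% (0.281% to 48.2%) against 26.4%. None of the 9 held the ESRR, AP-1 or TCF/LEF word there, which allows shares of up to 33.6%, and all peaks held them in 1.68%, 14.4% and 6.21% of cases. Among all lower peaks of the table, the shares were 5.56% (MEF2), 31.5% (E-box), 25.6% (GATA), 29.4% (TEAD), 3.08% (ESRR), 14.8% (AP-1) and 7.50% (TCF/LEF). The intervals cover counting error only and take the 9 peaks as separate draws, which neighbours in 1 intron are not, so they were not read as a comparison. In whole peaks, 2 of the 9 held the MEF2 consensus (22.2%), against 7.56% of all peaks and 10.3% of all lower peaks. The median GC content over the 16 *Ror1* peaks was 45.6%, with 9.96 CpG per kb, against 48.1% and 13.6 per kb over all peaks and 47.4% and 12.6 per kb over intronic peaks. The peaks of *Fzd2*, *Fzd7* and *Vangl2* lie mostly on CpG-rich starts, with a median of 46.0 CpG per kb for *Fzd2*, 45.5 for *Fzd7* and 32.8 for *Vangl2*. The median *Ror1* peak lay 108 kb from its start, and the median of all peaks 15.5 kb.

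The other genes of noncanonical WNT and planar cell polarity signalling were read as a list of 42 genes, of which 39 had peaks. Of their 172 peaks, 13 were lower (7.56%, against 10.6% of all peaks) and 8 were higher (4.65%, against 4.57%) by 1 or more, and the median difference was 0.04. The lower peaks lay at 7 genes and the higher peaks at 7, with *Nfatc2* in both. Over all genes with peaks, 19.7% had a lower peak and 10.7% a higher one. Of the list's genes, 22 had a summed difference below 0 and 17 above, with a median of −0.02, while over all genes with peaks 50.3% lay below 0.

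The list's genes with lower peaks include 2 atypical cadherins of planar polarity. *Celsr1* had 2 peaks, both lower, with summed reads of 182 in controls and 46.1 in *Arid1a cKO* hearts and a log2 difference of −1.98. *Celsr2* also had 2, both lower, at 28.6 and 13.3 summed reads. *Ankrd6*, the mouse Diversin gene, had 2 lower peaks of 3 and went from 180 to 74.5 summed reads. *Nfatc2*, a calcium-regulated transcription factor gene, had 4 lower and 1 higher peak of 9, with 858 and 668 summed reads. *Intu* and *Gpc4* each had 1 lower peak, with differences of −1.84 and −1.38, and summed log2 differences of −0.40 and −0.48. *Fzd8* had 1 weak lower peak 400 kb from its start, with 8.88 and 3.78 reads, while its 5 peaks summed to 395 and 476 reads.

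The list's higher peaks were mostly weak in controls. The largest difference, 2.77 at *Daam1*, a formin gene of the pathway, went from 4.53 to 30.9 reads, while the 31 peaks of *Daam1* summed to 3934 and 3614. *Prickle2* had 12 peaks, 1 of them higher, and 544 reads in controls against 782 in *Arid1a cKO* hearts. *Wnt4* had a peak at 3.18 and 15.7 reads, *Fzd1* one at 11.3 and 30.5, *Ryk* one at 9.45 and 22.8, and *Camk2d* one at 4.99 and 11.9.

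**Figure D5:**
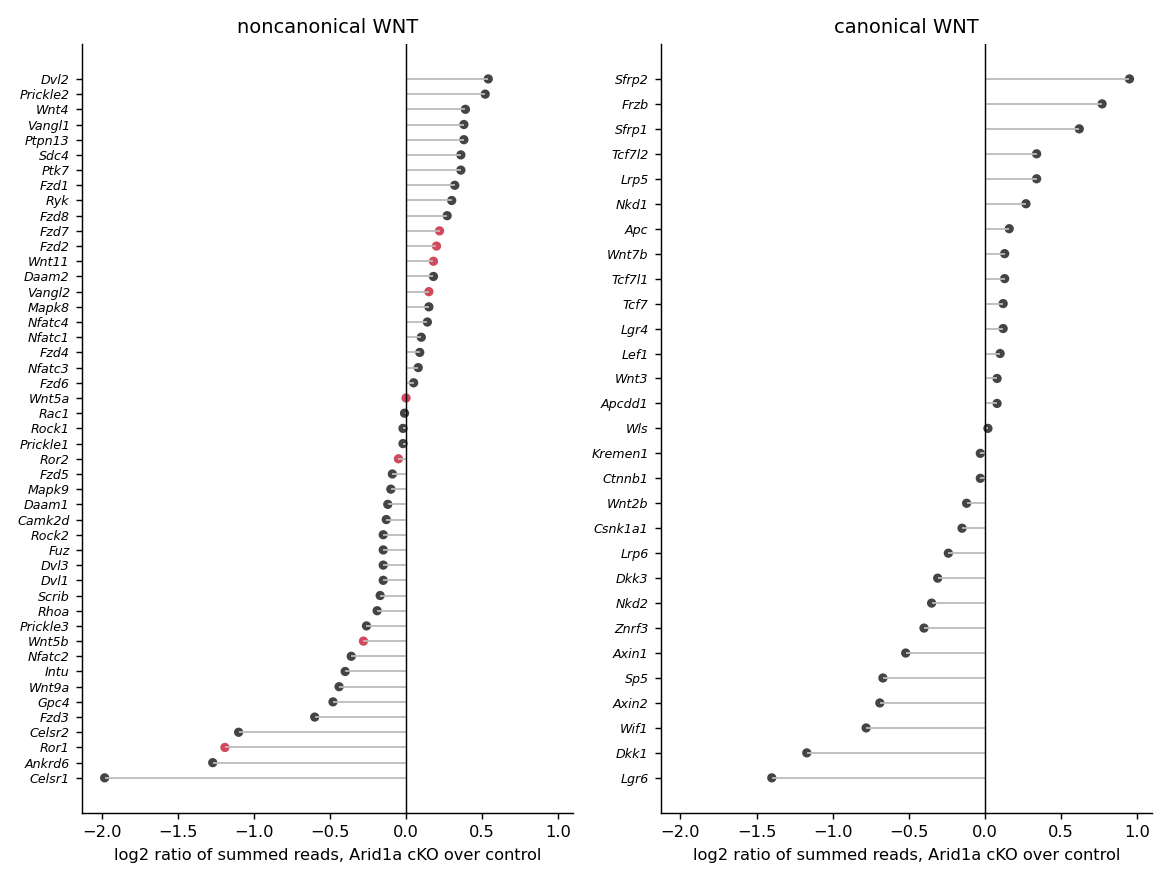
Log2 ratio of normalized reads summed over the peaks of each gene, *Arid1a cKO* over control (x axis), for the noncanonical genes (left, the 8 chosen genes in red) and the canonical genes (right), 1 gene per line. *Celsr1*, *Ankrd6*, *Ror1* and *Celsr2* are the lowest on the left.

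Canonical WNT genes, which act through β-catenin, were read beside them. Of 42 genes, 29 had peaks, and of 109 peaks 17 were lower (15.6%, against 10.6% of all peaks) and 11 higher (10.1%, against 4.57%), with a median difference of 0.08. Without peaks under 10 normalized reads, 15 of 96 were lower and 6 higher, against 9.93% and 3.37% of all peaks. With predicted RefSeq genes included, 13 of 75 were lower and 6 higher. *Axin2*, a negative regulator and a usual target of the pathway, had 4 lower peaks of 6 and went from 489 to 302 summed reads. Its largest difference, −3.23, was at a peak with 35.5 and 3.78 reads. *Nkd2*, another inhibitor, had 2 lower peaks and 1 higher peak of 6, the largest difference being −2.43 (25.5 and 4.72 reads), and summed reads of 105 and 82.9. *Apcdd1* had 1 lower peak of 4, with 13.0 reads in controls and the lowest value of the table in *Arid1a cKO* hearts, while its summed reads were 83.3 and 88.2. *Znrf3* had 1 lower peak of 6, with 11.5 reads in controls and the lowest value in *Arid1a cKO* hearts, and summed reads of 274 and 207. *Apc* had 1 higher peak of 3, with 4.59 and 24.6 reads (2.42), and summed reads of 284 and 317. By summed reads, the lowest of the list were *Lgr6* (3 lower peaks of 4, 499 and 189 reads, −1.40) and *Dkk1* (2 of 2, 19.4 and 8.67 reads per kb, −1.17). The highest were *Sfrp2* (0.95), *Frzb* (0.77) and *Sfrp1* (0.62), each with 1 higher peak of 2, and *Tcf7l2* had 3 higher peaks and 1 lower peak of 10. These 6 genes are named after their values were seen. Of the 29 genes, 14 had a summed difference below 0 and 15 above.

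The genes most like *Ror1* were found among 748 genes with at least 10 nearest peaks, by the log2 ratio of summed reads between the 2 group means. The closest 5 were *Gsg1l* (−1.20), *Dbx1* (−1.24), *D630024D03Rik* (−1.27), *Corin* (−1.09) and *Hdac4* (−1.29). *Gsg1l* had 7 lower peaks of 10, *Dbx1* 9 of 13, *Corin* 5 of 10 and *Hdac4* 12 of 17, the most of any gene. *D630024D03Rik* had 10 lower peaks of 12, in a run of 10 over 69.7 kb, the longest after the 2 runs of 14. Of the 748 genes, 10 had a summed difference as low as that of *Ror1* or lower, and of all 15765 genes with peaks, 6 had more lower peaks.

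Markers of the cell types of the ventricle were read in the same peaks, with levels as normalized reads per kb of peak. The cardiomyocyte list had peaks at all 8 genes and stood at 85.7 in controls against 76.7 in *Arid1a cKO* hearts. Of its 54 peaks 36 were below 0, against 22225 of all 45980 peaks. By 1 or more, 5 were lower (9.26%, against 10.6% of all peaks) and 1 was higher (1.85%, against 4.57%). In this list, 6 of the 8 genes had a summed difference below 0. Its densest genes in controls were *Myh6*, at 144 and 157, and *Pln*, at 144 and 123. *Tnnt2* differed by −0.46, *Myl3* by −0.43 and *Actn2* by −0.35 in summed reads. The ventricular list stood at 90.9 and 77.1, with *Myl2* at 118 and 110. Of its 8 peaks, 0 were lower and 2 higher by 1 or more (25.0%, against 4.57% of all peaks). The higher peaks were weak in controls, at *Myl2* (13.0 and 78.2 reads) and *Hey2* (8.0 and 17.5 reads). The atrial list stood at 20.2 and 25.0 with 3 of 4 genes, none of the peaks being nearest to *Sln*. By 1 or more, 5 of the atrial list's 18 peaks were higher (27.8%) and 3 lower (16.7%). Its densest gene in controls, *Nr2f2*, held 15 of its 18 peaks and stood at 24.4 and 23.9, while the single *Nppa* peak had 49.5 and 234 reads and the *Myl7* peaks 11.3 and 56.0 in sum. All peaks together stood at 51.7 and 48.8, so the cardiomyocyte and ventricular lists, as sums, lay above that level in both groups. Not every gene did. *Tnni3* (25.1 in controls and 30.5 in *Arid1a cKO* hearts), *Ttn* (47.8 and 40.4) and *Hey2* (48.6 in controls) lay below it in both groups. The other genes of these lists lay above it in both.

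The fibroblast list was higher in *Arid1a cKO* hearts at 45 of 49 peaks, 9 of them by 1 or more and 0 lower by 1 or more. Over all annotated peaks, 23277 of 45980 were above 0, with 4.57% higher and 10.6% lower by 1 or more. It stood at 24.0 reads per kb in controls and 32.7 in *Arid1a cKO* hearts, with all 7 genes above 0, and its densest gene, *Col1a2*, at 30.2 and 38.6. The endothelial list stood at 52.1 and 52.4 (densest gene in controls *Cdh5*, 69.8 and 71.9). As a sum it too lay above all peaks together (51.7 and 48.8) in both groups. The smooth muscle and pericyte list stood at 33.5 and 35.7 (*Cspg4*, 39.9 and 39.1). The leukocyte list stood at 18.9 and 22.0 (*Runx1*, 22.7 and 24.0), with no peak nearest to *Adgre1* or *Lyz2*. The epicardial list stood at 46.2 and 49.9 (*Wt1*, 54.0 and 47.5), with *Tbx18* at 40.3 and 55.9, *Msln* at 16.3 and 20.6, and no peak nearest to *Upk3b*. On the log2 scale of summed reads the fibroblast list differed by 0.45 and the cardiomyocyte list by −0.16, beside −1.19 at *Ror1*. The part of a shift in cell types in the values of *Ror1* and the other WNT genes was not tested.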

How the data were processed

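H3K27Ac and input libraries of 2 control and 2 *Arid1a cKO* ventricle samples were put into groups by their labels. By the submitters' notes and methods, alignment to mm10 was done in BWA 0.7.17-r1188 and peak calling in HOMER, over the pooled inputs, with peaks present in 2 or more samples retained. The authors compared the groups in DiffBind 2.12.0, through DESeq2 1.24.0. The deposited table gives the log2 mean normalized read count of each peak in each group. The scaling between libraries and any use of the input in the normalized read counts are not given in the sources used here. Its columns of fold change, p-value and FDR are the authors' comparison and were not used. It holds 0 columns of per-sample values, so no new test was run, and no error between hearts or depth per library was computed.

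Peaks were joined to 45756 curated RefSeq transcripts, and 7 peaks on unplaced sequences were left out. Promoters reached from 1000 bp before to 100 bp after a start, by the peak's centre. Differences are the *Arid1a cKO* minus the control value, and sums are of 2 to the power of the value. A group mean at the lowest value of the table gives a bound against 3 reads. Of the 8 genes, 6 matched the promoter sequences. The members and lists were chosen with earlier results of these data known. Named genes are the 8 genes, the noncanonical genes with a difference of 1 or more in size, the 5 canonical genes with the largest, the markers, genes with a peak within 500 kb of *Ror1*, the 5 genes most like *Ror1*, and *Arid1a*. Alternatives covered the size counted, centring, weak peaks, the gene assignment, chromosomes X and Y, and the motif window. Steps were tested on simulated data. Python 3.11.15, numpy 2.4.6, pandas 2.3.3, scipy 1.17.1 and matplotlib 3.10.9 were used.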

Additional observations from a re-analysis of the deposited data

How the results depend on the processing

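No paired analysis was possible because the table has no values per sample, and leaving out a replicate was not possible. Depth is unknown, and the spread between hearts enters only the authors' p-value and FDR, which were not used, so no difference is given with it. Subtracting the median of all peaks or of promoter peaks, both 0.01, moved no count by over 1.5 times.

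With 1.5 in place of 1, the lower peaks were 8 for *Ror1* and 3 for the other 7 genes, 6.12% of all peaks were lower and 1.63% higher, the noncanonical list had 5 lower and 3 higher, the canonical list 8 and 3, and the run in *Ror1* shortened to 9. With a 1.5-fold difference, *Ror1* had 14 lower peaks, the other 7 genes 5 higher, all peaks 17.3% lower and 12.0% higher, the noncanonical list 24 lower and 24 higher, and the canonical list 27 and 18. Leaving out peaks under 10 normalized reads gave 0 higher peaks in the other genes and 6 in the canonical list.

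Within 100 kb, *Ror1* had 2 lower peaks of 8. By gene body or 5 kb before it, *Ror1* had 16 of 24, and the other genes 2 lower and 0 higher. With all RefSeq starts, predicted models included, *Ror1* had 6 peaks, 3 of its 16 and 3 from the *Ube2u* side, with 0 lower and a summed difference of −0.67. All its lower peaks were then nearest to the predicted genes *Gm12701* and *Gm35760*. The other genes then had 2 lower and the canonical list 6 higher. By gene body and with all RefSeq starts, *Wnt11* had 0 peaks. With protein-coding starts the other genes had 2 higher. Across the settings the summed difference of *Ror1* ran from −1.43 to −0.67. Of 62 alternative summed differences of the 8 genes, leaving out those of *Wnt11* without peaks, 62 moved by less than 1.5-fold. Signs near 0 turned, and medians in place of sums gave 0.10 for *Wnt5b* (sum −0.28) and −0.22 for *Fzd7* (sum 0.22). In whole peaks, the TEAD share of the lower *Ror1* peaks was 77.8% (all peaks 65.4%) and the GATA share 77.8% (60.1%). In the central 500 bases, the longer TEAD form gave 0% (9.70%). The alternatives for the lists, the markers, the gene body, the runs and the split by place were chosen after seeing the data.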
